A study of Mus musculus with 2 samples.

Results

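Glutathione transferases and glutathione peroxidases were followed across cell types of the mouse jejunal crypt, in 7 of the 31053 genes of the files: Gsta1, Gsta4, Gstm1, Gstm3, Gstp1, Gpx1 and Gpx2. They were taken by symbol, and all 7 were found. The genes had been chosen by their levels in these same libraries, so the levels and ratios given for them are a description and no test is attached. The cells came from jejunum of female mice, per the labels, aged 10 to 12 weeks and carrying Lgr5-eGFP-IRES-CreER, an allele that places GFP at Lgr5, a gene active in the stem cells at the base of the crypt. The mice had received an Fc control or a FZD5/8 antagonist, directed at a pair of Wnt receptors of the Frizzled family, and GFP-sorted cells of 3 mice per condition made up 1 droplet library each. All mice of both groups carried the reporter allele, and its GFP persists for a time in the daughters of stem cells, so a GFP sort also takes cells that have left the stem cell state. The comparison addresses what blocking these receptors does to crypt cells.

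Glutathione transferases join the tripeptide glutathione to reactive, mostly lipophilic compounds, which makes these soluble and ready for export. Gsta1 and Gsta4 belong to the alpha class, Gstm1 and Gstm3 to the mu class and Gstp1 to the pi class. GPX1 and GPX2 are selenoproteins that use glutathione to reduce hydrogen peroxide and organic hydroperoxides, GPX1 in nearly all cells and GPX2 mainly in the gut epithelium, where it is known from crypt bases. Several transferase genes and GPX2 are known targets of Nrf2, a transcription factor that binds antioxidant response elements, and the human GPX2 promoter is also known to respond to β-catenin and TCF, the nuclear end of Wnt signalling.

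Promoters of 6 of the 7 genes were present in the RefSeq table (GRCm38.p6), each with 250 bases before and 50 bases after a start site. A set of 4 is shown because these genes stand for the patterns described below. In the antagonist library Gpx2 was lower in most cell groups, Gstp1 was higher in every group and Gstm3 was higher in the crypt groups. Gsta1 was highest in enterocytes. Capitals mark matches, on either strand, to a TCF/LEF site, searched as CTTTGAA and as the forms that end in GAT, in GTA or in GTT, or to TGANTCA, the AP-1 site. They lie at chr12:76795505-76795804 on the minus strand (Gpx2), chr19:4037863-4038162 on the minus strand (Gstp1), chr3:107969125-107969424 on the minus strand (Gstm3) and chr9:78230419-78230718 on the plus strand (Gsta1).
Gpx2: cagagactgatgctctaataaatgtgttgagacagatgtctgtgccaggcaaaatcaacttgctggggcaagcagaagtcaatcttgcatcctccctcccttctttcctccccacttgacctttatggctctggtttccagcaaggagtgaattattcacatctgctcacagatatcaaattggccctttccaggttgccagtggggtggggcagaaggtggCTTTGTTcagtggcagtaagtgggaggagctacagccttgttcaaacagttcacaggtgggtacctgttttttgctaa
Gstp1: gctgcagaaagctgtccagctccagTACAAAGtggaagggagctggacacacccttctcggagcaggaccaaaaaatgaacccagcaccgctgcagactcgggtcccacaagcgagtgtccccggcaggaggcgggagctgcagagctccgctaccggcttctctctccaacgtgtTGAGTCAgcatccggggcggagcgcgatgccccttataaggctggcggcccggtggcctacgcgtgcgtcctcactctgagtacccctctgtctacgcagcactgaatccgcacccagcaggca
Gstm3: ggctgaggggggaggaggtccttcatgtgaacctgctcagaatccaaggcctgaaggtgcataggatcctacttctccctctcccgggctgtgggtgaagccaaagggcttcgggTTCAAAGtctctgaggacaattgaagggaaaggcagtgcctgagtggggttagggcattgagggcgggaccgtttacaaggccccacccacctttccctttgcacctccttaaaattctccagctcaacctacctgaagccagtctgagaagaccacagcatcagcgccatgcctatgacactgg
Gsta1: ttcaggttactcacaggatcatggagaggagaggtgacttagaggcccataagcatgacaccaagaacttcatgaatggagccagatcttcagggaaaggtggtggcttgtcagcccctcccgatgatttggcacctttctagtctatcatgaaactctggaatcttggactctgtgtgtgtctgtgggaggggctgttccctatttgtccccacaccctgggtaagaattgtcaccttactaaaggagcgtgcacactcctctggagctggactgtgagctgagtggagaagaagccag

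The Gpx2, Gstp1 and Gstm3 promoters each held 1 match to a TCF/LEF form, beginning 28, 225 and 135 bases before the start site. Such a match was present in 16.9% of the 32851 promoters of this length in the table. Gstp1 also held an AP-1 match, TGAGTCA, 74 bases before its start, and 7.81% of all promoters held one. Neither the core of the antioxidant response element (TGACNNNGC, in 12.4% of all promoters) nor a form of the HNF4 site (CAAAGTCCA, in 0.475%) matched in the window of any of the 6 genes. The motifs were picked after some of these sequences had been seen, and a match or its absence concerns these letters only.

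In the GRCm38 annotation (GENCODE) all 7 are protein-coding genes. Gsta4 (ENSMUSG00000032348, chr9:78182774-78209349) and Gsta1 (ENSMUSG00000074183, chr9:78230656-78242684) lie close together on the plus strand of chromosome 9. Gpx1 (ENSMUSG00000063856, chr9:108338903-108340343) lies on the plus strand of the same chromosome. Gstm3 (ENSMUSG00000004038, chr3:107963696-107969283) and Gstm1 (ENSMUSG00000058135, chr3:108012255-108017973) are on the minus strand of chromosome 3. Gstp1 (ENSMUSG00000060803) is at chr19:4035407-4037985 and Gpx2 (ENSMUSG00000042808) at chr12:76792333-76795554, both on the minus strand. Gpx2 overlaps Fntb on the opposite strand, and whether the counting used strand is not given in the sources used here. This chemistry reads 3' ends of transcripts, and some of these ends have near copies. Of the 90-base windows in the last 500 bases of Gsta1, 77.9% also occur in transcripts of Gm3776, Gsta2 or Gm10639, and 68.1% of those of Gstp1 occur in Gstp2 or Gstp-ps. For Gpx2 the share was 12.4%, with Gpx2-ps1, and for Gsta4, Gstm1, Gstm3 and Gpx1 it was 0. The Gsta1 and Gstp1 values are therefore uncertain with respect to their copies. Gm3776 itself had 111 CPM in control enterocytes and 246 CPM in antagonist enterocytes, and Gstp2 had 22.2 and 23.6 CPM.

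Cells were kept when they had 500 or more genes and no more than 20% of their unique molecular identifiers (UMIs, the counted molecules) came from mitochondrial genes, 11263 of 12672 barcodes in the control and 11019 of 13085 in the antagonist library. They held 66206242 and 54328008 UMIs, with medians of 4478 and 2732 UMIs per cell, and 145 barcode sequences occurred in both libraries. Cells of 20000 UMIs or more held 13.1% of the control and 31.9% of the antagonist UMIs. Although both libraries are labelled female, Xist was at 1.33 CPM in the control and 512 CPM in the antagonist library, and 4 Y-linked genes together were at 106 and 5.60 CPM. The control library therefore went against its label, and sex-linked differences cannot be told apart from the condition in any comparison here. Lgr5 was at 66.2 and 3.09 CPM, and Olfm4, a secreted protein of crypt base cells, at 2325 and 323 CPM. With 1 library per condition there was no replicate check. Levels are UMIs per 1000000 UMIs of a library or cell group (CPM), and all intervals are 95% intervals that cover counting error only.

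Cells were sorted into groups by the summed share of marker genes, and none of the 7 genes was a marker. A stem-like gate held 5540 control and 349 antagonist cells, an S phase gate 1357 and 1672, and a G2 and M phase gate 2306 and 3223. Enterocyte-like cells numbered 189 and 504, goblet-like 284 and 410, Paneth-like 56 and 228, tuft-like 240 and 243 and enteroendocrine-like 57 and 57. A further 1159 and 4283 cells reached no gate and are called ungated. Many cells lay close to a limit: 1372 control and 573 antagonist cells had a stem marker share within 25% of it, the latter more than the 349 antagonist cells in the stem-like gate. An immune gate held 4 and 2 cells and was not compared. The immune marker list was at 14.4 CPM in the control and 8.06 CPM in the antagonist library.

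Over all kept cells, 5 of the 7 genes were at least 1.5-fold higher in the antagonist library and none was 1.5-fold lower. Of all 5839 genes that passed the same rule of size (20 CPM in either library and 50 UMIs in the libraries together), 5.04% were that much higher and 7.91% that much lower, with a median log2 ratio of -0.07. Gsta4 passed this rule through the antagonist library alone. Since the genes were chosen on this contrast, nothing is read from the difference between these shares. Among 63 pairs of a gene and a cell group, 48 passed the rule, of which 22 were 1.5-fold higher and 2 lower. Among all genes, 9.28% of such pairs were higher and 6.71% lower. Without the Paneth-like group, which differed between the libraries in nearly all genes as described below, 17 of 43 pairs were higher, against 5.36% of pairs of all genes higher and 6.96% lower.

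**Figure D1:**
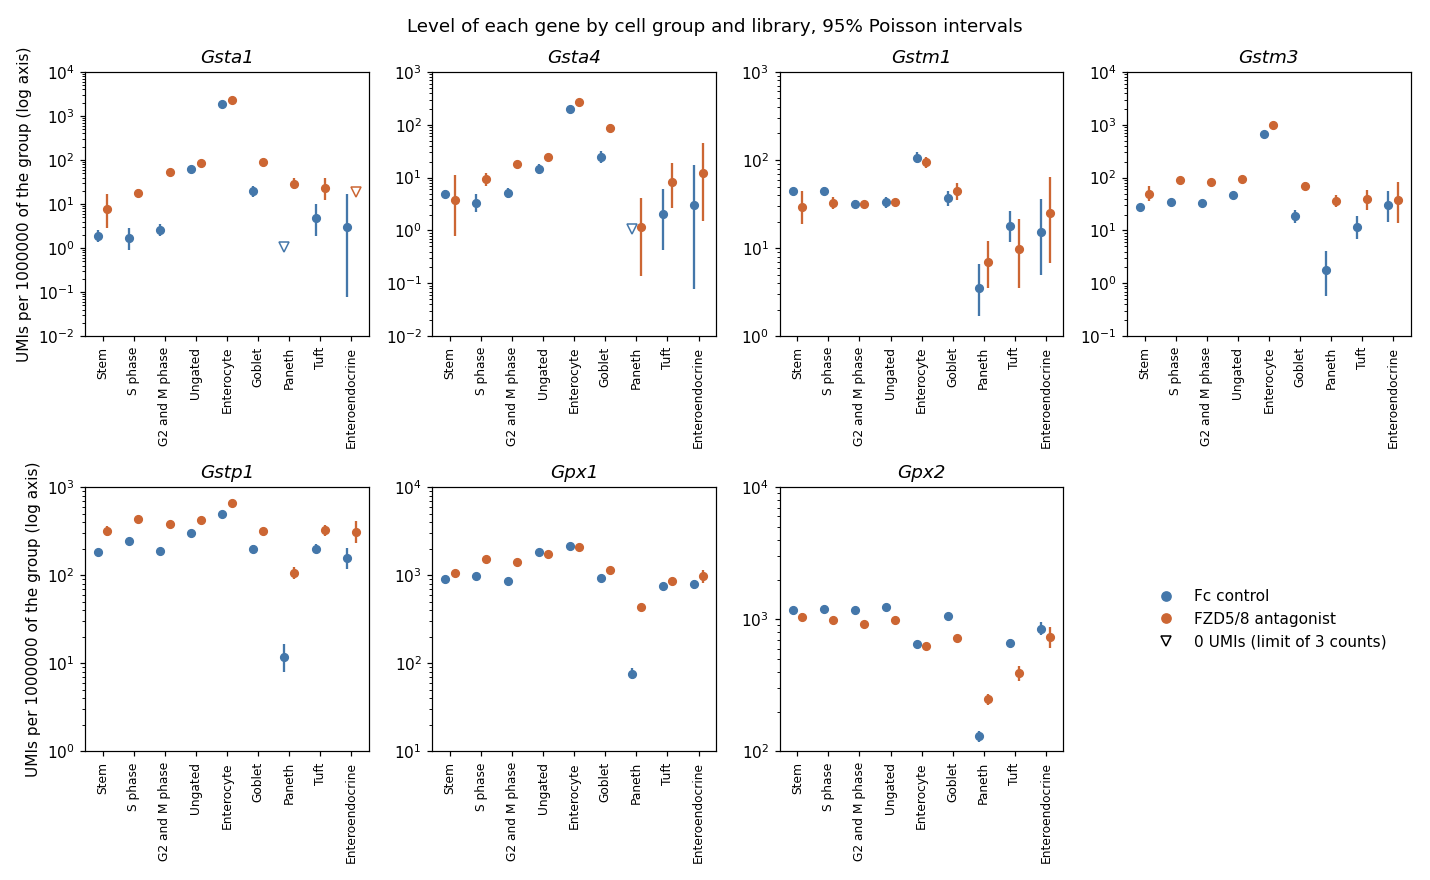
Level of each gene (vertical log axis, UMIs per 1000000 of the group) in 9 cell groups of the Fc control and FZD5/8 antagonist libraries, with 95% Poisson intervals. Gsta1 and Gstm3 peak in the enterocyte-like group (1831 and 674 CPM in the control), Gpx2 is lowest in the Paneth-like group (130 and 249 CPM), and open triangles stand for groups with 0 UMIs.

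**Figure D2:**
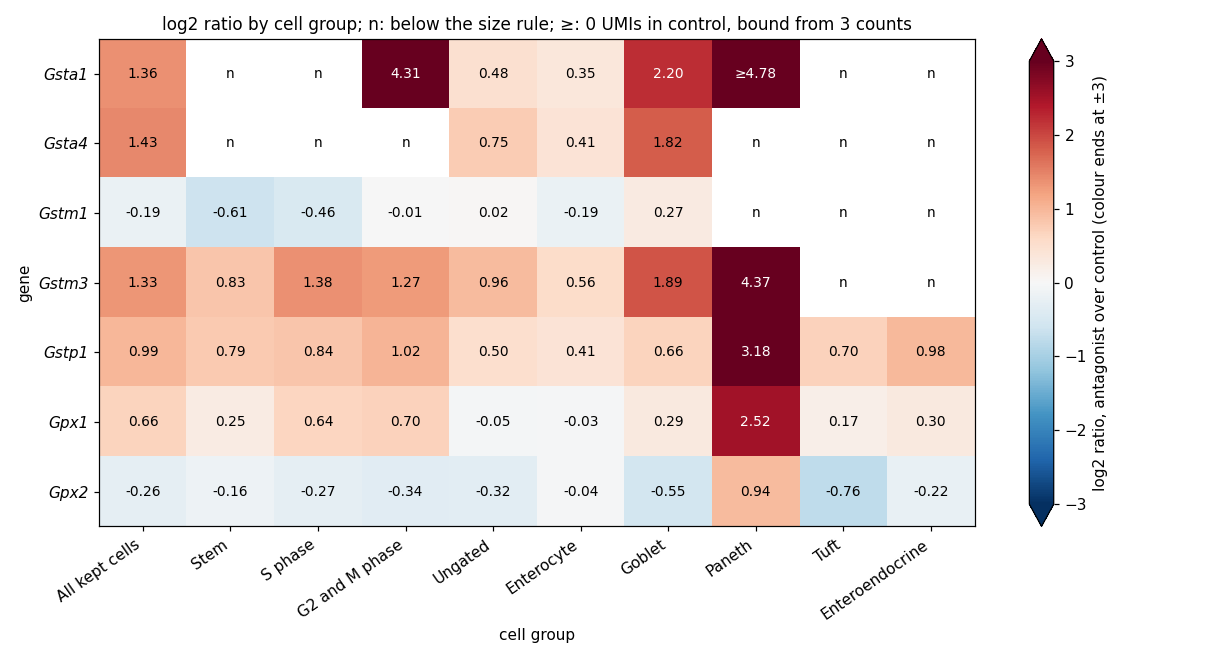
log2 ratio of the antagonist to the control library for each gene (rows) in all kept cells and in 9 cell groups (columns), where n marks pairs under the rule of size. Gstp1 is above 0 in every column, Gpx2 is below 0 in every column but the Paneth-like one (0.94), and the enterocyte-like column reaches no more than 0.56.

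Of the 7 genes, Gsta1 had the largest share of its UMIs in a single differentiated cell type. It was at 1831 CPM (interval 1771 to 1893) in control and 2330 CPM (2267 to 2394) in antagonist enterocytes, a ratio of 1.27 (1.22 to 1.33). This log2 ratio of 0.35 turned to -0.17 with gate limits halved. Enterocytes gave 85.2% of the control and 61.0% of the antagonist Gsta1 UMIs, from 2.86% and 4.13% of all UMIs. In the control library the next levels were 62.4 CPM in ungated and 19.4 CPM in goblet-like cells, each apart from its neighbours. The tuft-like, enteroendocrine-like, G2 and M phase, stem-like and S phase groups followed at 4.79, 3.07, 2.64, 1.90 and 1.67 CPM, with overlapping intervals between neighbours. Paneth-like control cells had no Gsta1 UMI in 2822457, which limits the level to 1.06 CPM (3 counts). The whole libraries had 61.4 and 158 CPM of Gsta1, with a ratio of 2.57 (2.47 to 2.67). This log2 ratio of 1.36 was 0.63 with the cell groups weighted alike in both libraries and 2.90 without differentiated cells.

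Outside enterocytes, Gsta1 was higher in the antagonist library in 7 groups, while enteroendocrine-like cells had 1 and 0 UMIs. The G2 and M phase gate went from 41 UMIs (2.64 CPM) in the control to 925 UMIs (52.2 CPM), a ratio of 19.8 (14.5 to 27.8). The S phase gate had 1.67 and 18.0 CPM, and the stem-like gate 1.90 and 7.67 CPM, the latter from only 6 antagonist UMIs. Goblet-like cells had 19.4 and 89.3 CPM, a ratio of 4.61 (3.33 to 6.47). Ungated cells had 62.4 and 87.1 CPM, a log2 ratio of 0.48 that was 1.74 with gate limits doubled and 2.09 with gates called on thinned cells. Few ungated control cells carried these UMIs. In cells thinned to 3000 UMIs, 27 of 675 control (4%) and 292 of 1866 antagonist ungated cells (15.65%) had a Gsta1 UMI. Tuft-like cells had 4.79 and 22.7 CPM. In the antagonist library the intervals of goblet-like and ungated cells overlapped, as did those of Paneth-like, tuft-like, S phase and stem-like cells from neighbour to neighbour. With cells thinned to 3000 UMIs, 10 of 1634 control cells (0.612%) and 103 of 1642 antagonist cells (6.27%) of the G2 and M phase gate had a Gsta1 UMI. Unthinned, these shares were 1.04% and 10.2%. Among thinned tuft-like cells, taken as a type outside the absorptive lineage, 0 of 174 control cells (a share of up to 1.72%) and 2 of 56 antagonist cells (3.57%) had a UMI, and unthinned the tuft-like shares were 2.92% and 3.70%. The median depth of all cells, those too shallow to be thinned included, was 4361 and 1840 UMIs in the tuft-like and 5554 and 3070 UMIs in the G2 and M phase gate. The thinned control share of the G2 and M phase gate was under the tuft-like limit, and the antagonist share lay within the tuft-like interval of 0.436% to 12.3%. The log2 ratio of the G2 and M phase gate, 4.31, was 2.84 with gate limits doubled, and that of goblet-like cells, 2.20, was 1.33 with gates called on thinned cells.

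Enterocyte transcripts moved in the same direction. The summed 14 enterocyte markers were at 1403 and 4083 CPM in the G2 and M phase gate and at 1038 and 1854 CPM in the stem-like gate, with 13 of them detected in antagonist stem-like cells and all 14 in the other 3 sums. Per 1000 UMIs of these markers, Gsta1 had 1.88 UMIs in the control and 12.8 in the antagonist G2 and M phase gate, compared with 21.6 and 28.1 in enterocytes and 0.764 and 2.94 in tuft-like cells. The marker sum of tuft-like cells was itself higher than that of these crypt gates, at 6263 and 7704 CPM. The ratio of Gsta1 to the enterocyte markers thus differed between groups of the same library, and so did the marker sum. Free RNA and multiplets were not modelled, and their part in the Gsta1 UMIs of crypt cells was not tested.

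Gsta4, whose product is known for conjugating the lipid peroxidation product 4-hydroxynonenal, was also highest in enterocytes, at 202 CPM (183 to 224) in the control and 268 CPM (247 to 290) among antagonist cells, a ratio of 1.32 (1.16 to 1.51), whose log2 value of 0.41 turned to -0.07 with gate limits halved. Goblet-like cells came next with 24.8 CPM in the control and 87.5 CPM among antagonist cells, a ratio of 3.53 (2.62 to 4.81), above the ungated cells with 14.9 and 25.0 CPM. In the control library this order of the goblet-like and ungated groups was the reverse of that of Gsta1. The other groups were under 20 CPM in both libraries. The stem-like gate had 4.96 and 3.83 CPM, the S phase gate 3.34 and 9.46 CPM, and the G2 and M phase gate 5.21 and 18.3 CPM. Tuft-like cells had 2.05 and 8.09 CPM, from 3 and 5 UMIs, and enteroendocrine-like cells 3.07 and 12.4 CPM, from 1 and 2 UMIs. Paneth-like cells had 0 and 2 UMIs. In all kept cells together it had 11.9 and 32.0 CPM and a ratio of 2.70 (2.48 to 2.94).

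The mu class genes, whose products act on many electrophilic compounds, differed from each other. Gstm3 was at 674 CPM (638 to 712) in control and 994 CPM (954 to 1037) in antagonist enterocytes, just under the 1.5-fold limit with a ratio of 1.47 (1.38 to 1.58). Among the crypt groups, the S phase gate had 34.6 and 90.1 CPM, a ratio of 2.60 (2.25 to 3.02), and the G2 and M phase gate 33.7 and 81.3 CPM, a ratio of 2.41 (2.18 to 2.67). The stem-like gate had 28.0 and 49.8 CPM, a ratio of 1.78 (1.26 to 2.46), which turned to a log2 ratio of -0.20 when cells were thinned to 1000 UMIs. Ungated cells had 47.9 and 92.9 CPM, goblet-like cells 18.6 and 69.1 CPM, tuft-like cells 11.6 and 38.8 CPM, and enteroendocrine-like cells 30.7 and 37.1 CPM. In the control library goblet-like cells were thus below stem-like cells, and in the antagonist library the intervals of the groups outside enterocytes overlapped from neighbour to neighbour.

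Gstm1, in the same region as Gstm3, was highest in enterocytes, with the crypt groups between 29.4 and 45.0 CPM. Enterocytes had 107 CPM (92.5 to 122) in the control and 93.6 CPM (81.4 to 107) in the antagonist library. All other groups were under 50 CPM in both. The S phase and stem-like gates had 45.0 CPM each in the control library, and 32.7 and 29.4 CPM in the antagonist library, ratios of 0.726 (0.605 to 0.868) and 0.654 (0.413 to 0.986), the latter from 23 antagonist UMIs. The stem-like log2 ratio of -0.61 did not reach the 1.5-fold limit with gate limits doubled (-0.33), with 5 markers per gate (-0.30), in cells thinned to 1000 UMIs (-0.32) or with gates called on thinned cells (-0.43). The G2 and M phase gate had 32.0 and 31.9 CPM, ungated cells 33.2 and 33.7 CPM, and goblet-like cells 36.8 and 44.3 CPM. Several of these ratios varied with depth and gating. The S phase log2 ratio of -0.46 was -1.06 in cells thinned to 1000 UMIs and -0.12 with gate limits doubled. With gates called on thinned cells, the G2 and M phase gate was at -0.65, past the limit, and ungated cells at -0.57. Their highest values were 0.08 with median-of-ratios scaling and 0.21 with gate limits halved. Tuft-like cells had 17.8 and 9.71 CPM, enteroendocrine-like cells 15.4 and 24.8 CPM and Paneth-like cells 3.54 and 6.87 CPM, with intervals of the ratio that include 1. Over all kept cells the Gstm1 ratio was 0.878 (0.826 to 0.932) and that of Gstm3 was 2.52 (2.42 to 2.63).

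Gstp1, the pi class transferase, was higher in the antagonist library in each of the 9 cell groups, and no interval of its ratio included 1. Enterocytes had the highest level in both libraries, 493 CPM (462 to 526) and 658 CPM (625 to 692), with the smallest ratio, 1.33 (1.23 to 1.45). Ungated cells had 303 and 429 CPM, a ratio of 1.42. The S phase gate had 245 and 438 CPM, a ratio of 1.79 (1.69 to 1.90). The G2 and M phase gate had 189 and 382 CPM, a ratio of 2.02 (1.94 to 2.12), the highest outside the Paneth-like gate. Stem-like cells had 183 and 318 CPM, a ratio of 1.74 (1.52 to 1.97). Goblet-like and tuft-like cells were equal at 200 CPM in the control library and stood at 317 and 325 CPM in the antagonist library, ratios of 1.58 and 1.62. Both fell under the 1.5-fold limit in cells thinned to 1000 UMIs, with log2 ratios of 0.52 and 0.30. Enteroendocrine-like cells had 157 and 310 CPM, from 51 and 50 UMIs. Between the G2 and M phase, stem-like, goblet-like, tuft-like and enteroendocrine-like groups, neighbouring levels had overlapping intervals in both libraries. The whole libraries had 204 and 406 CPM of Gstp1, with a ratio of 1.99 (1.95 to 2.03).

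Gpx1 was higher in the antagonist library in cycling cells and close to level in enterocytes, a contrast that varied with depth and gating. The G2 and M phase gate had 864 and 1400 CPM, a ratio of 1.62 (1.59 to 1.66), and the S phase gate 977 and 1519 CPM, a ratio of 1.56 (1.51 to 1.60). Stem-like cells had 903 CPM (892 to 915) and 1073 CPM (1002 to 1149), a ratio of 1.19. This log2 ratio of 0.25 was 0.85 with gates called on thinned cells. The S phase and the G2 and M phase gates then had 0.76 and 0.89. Enterocytes, the highest group in both libraries, had 2122 CPM (2057 to 2189) and 2072 CPM (2013 to 2133), a ratio of 0.977 (0.936 to 1.02). The enterocyte log2 ratio of -0.03 ranged from -0.19 with gate limits halved to 0.43 in cells thinned to 3000 UMIs. Ungated cells followed with 1821 and 1760 CPM, a ratio of 0.967, whose direction changed with several processing choices. Goblet-like cells had 939 and 1144 CPM, tuft-like cells 756 and 850 CPM and enteroendocrine-like cells 790 and 972 CPM, ratios of 1.22, 1.12 and 1.23. In cells thinned to 3000 UMIs the tuft-like and enteroendocrine-like log2 ratios of 0.17 and 0.30 were 0.91 and 1.23. In the antagonist library the goblet-like, stem-like, enteroendocrine-like and tuft-like levels overlapped from neighbour to neighbour. Over all kept cells the levels were 973 and 1539 CPM, a ratio of 1.58 (1.57 to 1.60). This log2 ratio of 0.66 was 0.28, under the 1.5-fold limit, with the cell groups weighted alike in both libraries.

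Gpx2, unlike Gpx1, was lower in enterocytes than in the crypt groups. In the control library the ungated, S phase, stem-like and G2 and M phase groups stood at 1233, 1187, 1167 and 1166 CPM, with overlapping intervals between neighbours. Goblet-like cells had 1058 CPM, enteroendocrine-like cells 852 CPM, tuft-like cells 662 CPM and enterocytes 649 CPM (614 to 687). The antagonist library was lower in every one of these groups. The same groups had 986, 982, 1043 and 919 CPM, in that order, with ratios from 0.788 (0.772 to 0.805) in the G2 and M phase gate to 0.893 (0.832 to 0.958) in the stem-like gate. Enterocytes differed least, with 631 CPM (599 to 665) and a ratio of 0.972 (0.900 to 1.05). This log2 ratio of -0.04 kept its sign in 7 of 13 alternatives. It ran from -0.36 with gate limits doubled to 0.27 with each cell weighted alike. Goblet-like cells had 722 CPM (683 to 763), a ratio of 0.683 (0.638 to 0.730). The lowest ratio was in tuft-like cells, 392 CPM and 0.591 (0.512 to 0.682), past the 1.5-fold limit. The tuft-like log2 ratio was -0.76, and it shrank to -0.34 with each cell weighted alike and to -0.15 in cells thinned to 3000 UMIs. Enteroendocrine-like cells had 731 CPM and a ratio of 0.858 (0.686 to 1.07). The log2 ratio there, -0.22, kept its sign in 11 of 13 alternatives and was 0.16 with gates called on thinned cells. All kept cells together had 1086 and 906 CPM of Gpx2, with a ratio of 0.834 (0.825 to 0.844).

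Read by cell group, enterocytes had none of the 7 genes past 1.5-fold, beside 5.58% of all genes higher and 4.43% lower there. In cells thinned to 3000 UMIs, Gstm3 (log2 ratio 0.82) and Gstp1 (0.70) passed it. Gstm3 also did with gate limits doubled (0.62) and in cells thinned to 1000 UMIs (0.62). It passed as well with cells of several differentiated gates kept in their leading gate (0.61). A filter of 1000 genes and 10% mitochondrial UMIs gave Gstm3 0.59, and each cell weighted alike gave Gstp1 0.61, both past the limit. Gstm1 passed it in the other direction in cells thinned to 1000 UMIs (-0.87) and with gates called on thinned cells (-0.69). In the stem-like gate Gstm3 and Gstp1 were higher and Gstm1 lower among 5 genes that passed, with 6.94% and 8.69% of all genes. The G2 and M phase gate had 4 of 6 higher, Gsta1, Gstm3, Gstp1 and Gpx1, with 5.1% of all genes higher and 8.01% lower. Goblet-like cells had 4 of 7 higher, Gsta1, Gsta4, Gstm3 and Gstp1, with 4.82% and 5.73%. Genes that passed only through the library in which they were high are part of these counts.

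The Paneth-like gate needs its composition beside it. Paneth cells are secretory cells of the crypt base filled with defensin and lysozyme transcripts. The 10 Paneth markers made up a median of 6509 of 10000 UMIs per cell in the control and 3201 in the antagonist library, and the median depth was 49700 and 2841 UMIs. Of all genes that passed there, 90.2% were 1.5-fold higher and 1.45% lower in the antagonist library, with a median log2 ratio of 1.56. All 5 of the 7 genes that passed were higher. Gpx1 was at 76.5 and 440 CPM, a log2 ratio of 2.52 that is 0.96 above this median. Gpx2 was at 130 CPM (117 to 144) and 249 CPM (226 to 274), a log2 ratio of 0.94 that is 0.62 below it, so that its direction turned with the scaling. Gstp1 was at 11.7 and 106 CPM and Gstm3 at 1.77 and 36.6 CPM, the latter from 5 control UMIs. Gsta1 had 51 UMIs (29.2 CPM) in the antagonist library, at least 27.5-fold higher than the control floor of 3 counts in that group. The enterocyte markers were at 88.2 and 1501 CPM in this gate. In the control library Paneth-like cells had the lowest level of all 9 groups for each of the 7 genes, and in the antagonist library for all but Gsta1. Their interval overlapped that of the next group for Gsta1, Gsta4 and Gstm1 in the control library. In the antagonist library it did so for Gsta4, Gstm1 and Gstm3.

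Enterocyte markers span a gradient in these cells, and the 7 genes were read along it. Cells were binned by the UMIs of the 14 enterocyte markers per 10000. Gsta1 was between 1.29 and 2.31 CPM in the 4 control bins under 50, then 104 CPM at 50 to 100, 719 CPM at 100 to 200, 869 CPM at 200 to 500 and 2419 CPM from 500 on. In the antagonist library it was already at 34.0 CPM at 20 to 50, where the control had 2.31 CPM, and at 109 CPM at 50 to 100. The 3 antagonist bins under 20 had 10.6, 5.03 and 7.14 CPM, from 6, 6 and 37 UMIs. At 200 to 500 it was at 1185 CPM and from 500 on at 3091 CPM. The antagonist library was thus higher in 7 of the 8 bins, with 104 and 109 CPM close together at 50 to 100. The exception was 100 to 200, with 719 CPM in the control and 356 CPM in the antagonist library. The control values at 50 to 100 and at 100 to 200 rested on 61 and 39 cells with 82 and 319 Gsta1 UMIs.

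**Figure D3:**
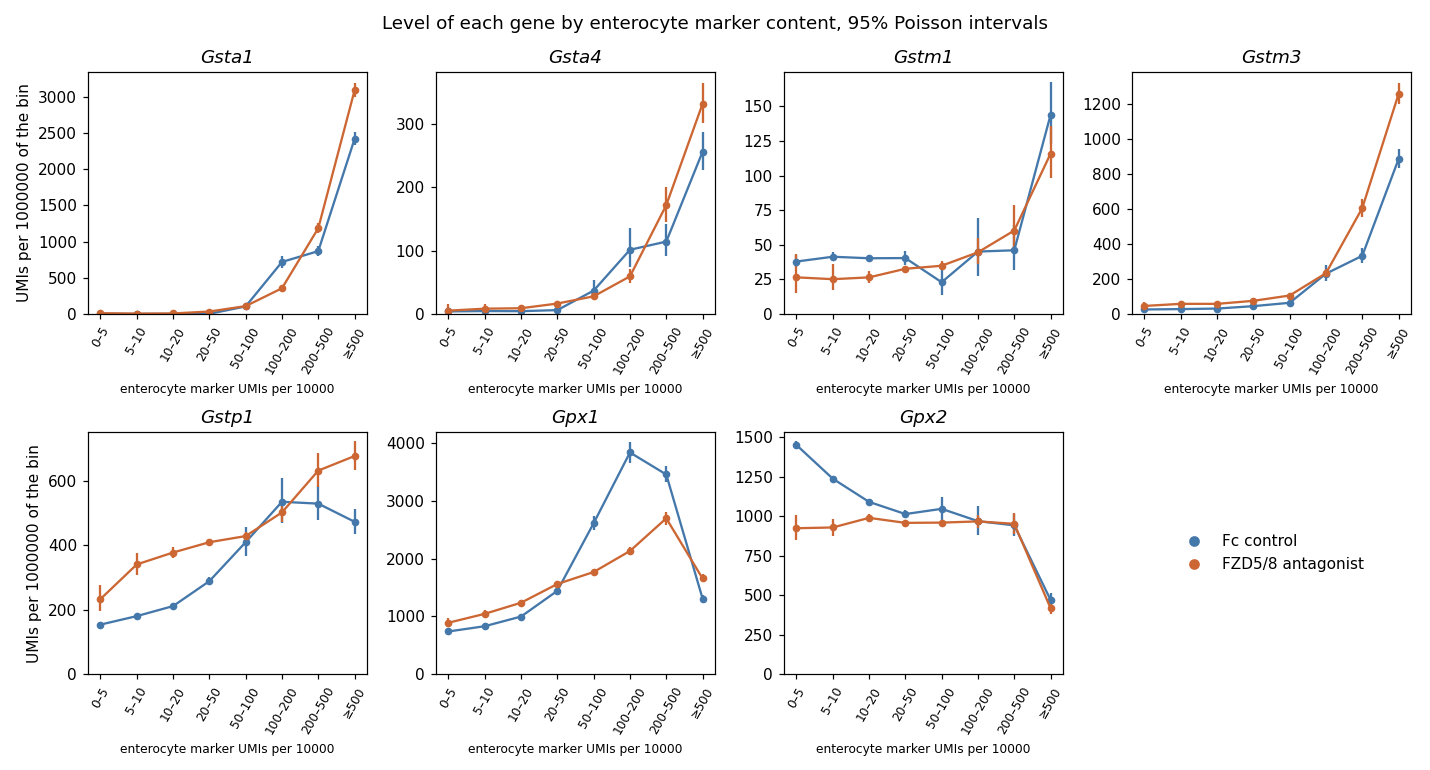
Level of each gene (UMIs per 1000000 of the bin, with 95% Poisson intervals) by enterocyte marker content of the cell (UMIs per 10000) in both libraries. Gpx1 peaks at 3836 CPM in the control and 2697 CPM in the antagonist library before the last bin, and Gpx2 starts at 1451 CPM in the control but 924 CPM in the antagonist library.

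Gpx1 had a peak along this gradient. In the control library it went from 740 CPM in cells with under 5 marker UMIs to 3836 CPM at 100 to 200 (39 cells) and 3455 CPM at 200 to 500 (58 cells), and was 1309 CPM from 500 on (131 cells). The antagonist library peaked later and lower, with 2132 CPM at 100 to 200 (469 cells), 2697 CPM at 200 to 500 (233 cells) and 1657 CPM from 500 on (271 cells). The enterocyte-like gate joins the last 2 bins, so its level ratio near 1 covers bins with ratios in opposite directions. Gstm3 had no such peak and was highest in the last bin, 883 and 1254 CPM. Gstp1 levelled off in the control library, with 534, 528 and 472 CPM in the last 3 bins, and in the antagonist library had 501, 631 and 676 CPM.

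Gpx2 ran the other way. In control cells with under 5 enterocyte marker UMIs it was at 1451 CPM, and in the following bins at 1238, 1091, 1014, 1047, 969 and 943 CPM before 470 CPM in the last. The antagonist library was flat, between 924 and 990 CPM over the first 7 bins, with 418 CPM in the last. The gap between the libraries was widest in the lowest bin, and at 100 to 200 the levels were 969 and 968 CPM. Cells in the lowest bin were shallow, with medians of 2797 and 1156 UMIs.

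Binning by Olfm4 instead set apart the crypt base, with the caution that Olfm4 itself was lower in the antagonist library. At 40 or more Olfm4 UMIs per 10000 there were 2702 control and 104 antagonist cells. Gstp1 was lowest there, 148 and 238 CPM, and highest in cells with under 2, 421 and 473 CPM, with the antagonist library higher in each of the 6 bins. Gstm3 had 30.8 and 50.3 CPM at 40 or more and 28.5 and 54.2 CPM at 20 to 40, but 277 and 187 CPM under 2. At 40 or more its antagonist level rested on 11 UMIs, and the intervals overlapped. The bin under 2 held 613 control and 6026 antagonist cells, from the crypt, ungated and enterocyte-like groups together. Within enterocytes (674 and 994 CPM) and within ungated cells (47.9 and 92.9 CPM) Gstm3 was higher in the antagonist library. The part of the mix of cell groups in the levels of the bins was not tested. Gpx1 had 649 and 787 CPM at 40 or more and was level at 5 to 10, with 1365 and 1364 CPM. Gpx2 was lower in the antagonist library at each Olfm4 content, by most at 5 to 10 with 1189 and 929 CPM. The difference was least under 2, with 952 CPM (923 to 981) and 938 CPM (926 to 951). Intervals overlapped there and at 40 or more, where Gpx2 had 1138 and 1057 CPM.

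**Figure D4:**
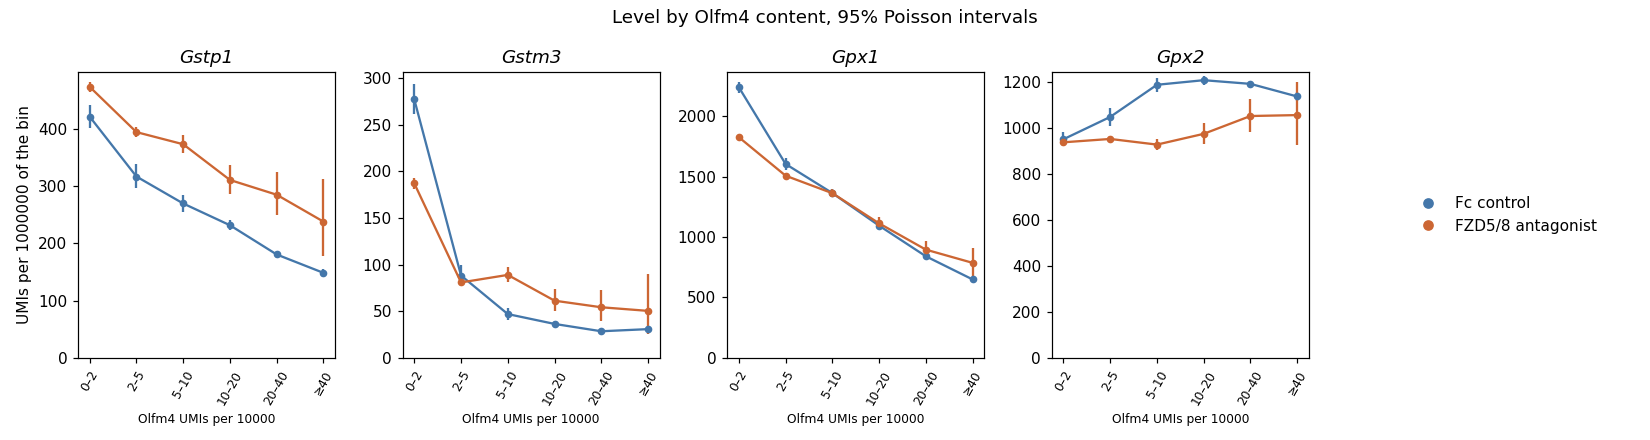
Levels of Gstp1, Gstm3, Gpx1 and Gpx2 (UMIs per 1000000 of the bin, with 95% Poisson intervals) by Olfm4 content of the cell (UMIs per 10000). The antagonist points of Gstp1 lie above the control in all 6 bins (238 and 148 CPM at 40 or more). Those of Gpx2 lie below it, with overlapping intervals in the first and last bins.

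Across the 18 combinations of cell group and library, the 7 genes fell into patterns. Pearson correlations of log2(CPM + 10) are given as a description, since all points share 2 libraries and their depths. All of them include the Paneth-like points, which were far below the others for Gstp1 (11.7 and 106 CPM) and Gpx1 (76.5 and 440 CPM). Gsta1 correlated with Gsta4 at 0.92 and with Gstm3 at 0.92, and Gstp1 with Gpx1 at 0.97. Gsta1 and Gpx2 were unrelated at -0.01, and Gpx1 and Gpx2 had 0.75. Among 4732 genes considered, Clec2h was closest to both Gsta1 (0.98) and Gsta4 (0.96). Next for Gsta1 came Slc26a6, Cyp3a13, Hkdc1 and Cox7a1, and for Gsta4 P4hb, Cgref1, Slc43a2 and Ahnak. Gstm3 was closest to Ces2a (0.99), Abhd3, Sult1b1, Ces2c and Ephx2; CES2A and CES2C are carboxylesterases, SULT1B1 a sulfotransferase and EPHX2 an epoxide hydrolase. Gpx1 was closest to Ndufb10 (0.99), Sdhd, Uqcrc1, Cyc1 and Uqcrfs1, which code for parts of the respiratory chain. Gstp1 was closest to Atp5k (0.98), Uqcr11, Cisd3, Cox5a and Atpif1. Gpx2 was closest to Mrpl2 (0.98), Stoml2, Ubp1, Nipsnap1 and Mrps35, of which Mrpl2 and Mrps35 code for mitochondrial ribosomal proteins. Gstm1 was closest to Aqp11 (0.94), Vmp1, Zfyve21, Ugt2b34 and Adgrg7.

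Other genes of the glutathione system were counted in the same way over all kept cells, where 5.04% of all 5839 genes were higher and 7.91% lower. These shares stand beside every list count that follows, and nothing is read from the counts. Of 22 other glutathione transferases 11 passed the rule of size, 4 were 1.5-fold higher and none was lower, with a median log2 ratio of 0.11. Mgst3, a microsomal transferase and peroxidase, had 663 and 1339 CPM, a ratio of 2.02 (1.99 to 2.04), and Gstp3 had 12.1 and 25.8 CPM, a ratio of 2.13. Gstp3 passed through the antagonist library alone. It had 9.68 and 14.1 CPM in stem-like cells, but 36.5 and 33.4 CPM in enterocytes. The lowest were the theta class genes Gstt3, with 35.4 and 25.3 CPM, and Gstt2, with 76.5 and 61.5 CPM. The only other peroxidase that passed, of 6, was Gpx4, which reduces lipid hydroperoxides, with 302 and 377 CPM.

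Genes of glutathione synthesis, supply and reduction were mostly under the limit, with 2 of 15 higher and 1 lower and a median of 0.08. Gclc, the catalytic subunit of the first step of glutathione synthesis, had 23.8 and 23.9 CPM. Slc1a1, a glutamate and cysteine transporter, had 15.8 and 30.6 CPM and Slc3a2, the heavy chain of several amino acid transporters, 31.7 and 49.3 CPM. Slc1a1 passed through the antagonist library alone. The lower gene was Glrx, a glutaredoxin that uses glutathione to reduce protein disulfides, with 231 and 107 CPM, a ratio of 0.465 (0.451 to 0.479), and Glrx3 had 208 and 154 CPM. Glrx was also lower in stem-like cells, with 296 and 166 CPM, but level in goblet-like cells, with 85.2 and 85.8 CPM. Of 17 genes of the Nrf2 system and its targets that passed, 3 were higher and 1 lower, with a median of 0.18. Nqo1, a quinone reductase, had 9.11 and 29.6 CPM with a ratio of 3.25 (2.95 to 3.57), and passed through the antagonist library alone. Ugdh, which supplies UDP-glucuronate, was at 27.2 and 48.1 CPM. Ftl1, the ferritin light chain, had 507 and 337 CPM and Bach1, a repressor at antioxidant response elements, 68.2 and 45.7 CPM.

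Among 12 other peroxide and superoxide enzymes and partners none was higher and 1 was lower, with a median of -0.04. This was Txnip, which binds thioredoxin, with 180 and 97.2 CPM. In stem-like cells Txnip had 243.6 and 149.5 CPM, in enterocytes 115.2 and 115.5 CPM and in tuft-like cells 128.5 and 166.7 CPM. Catalase (Cat) had 66.1 and 52.4 CPM, Prdx4 125 and 170 CPM and Prdx5 142 and 185 CPM. Of 19 selenoproteins and genes of their synthesis, a class to which both peroxidases belong, 1 was higher, with a median of -0.08. That gene was Sephs2, which makes the selenium donor for selenocysteine, with 118 and 222 CPM, a ratio of 1.88 (1.82 to 1.93). Secisbp2, which binds selenocysteine insertion elements, had 30.7 and 21.9 CPM, Selenom 230 and 175 CPM and Selenok 155 and 199 CPM. These lists were drawn up with earlier results of these libraries known. Their ratios are over all kept cells, and the cell groups had different shares in the libraries. The part of these shares in the ratios was not tested.

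**Figure D5:**
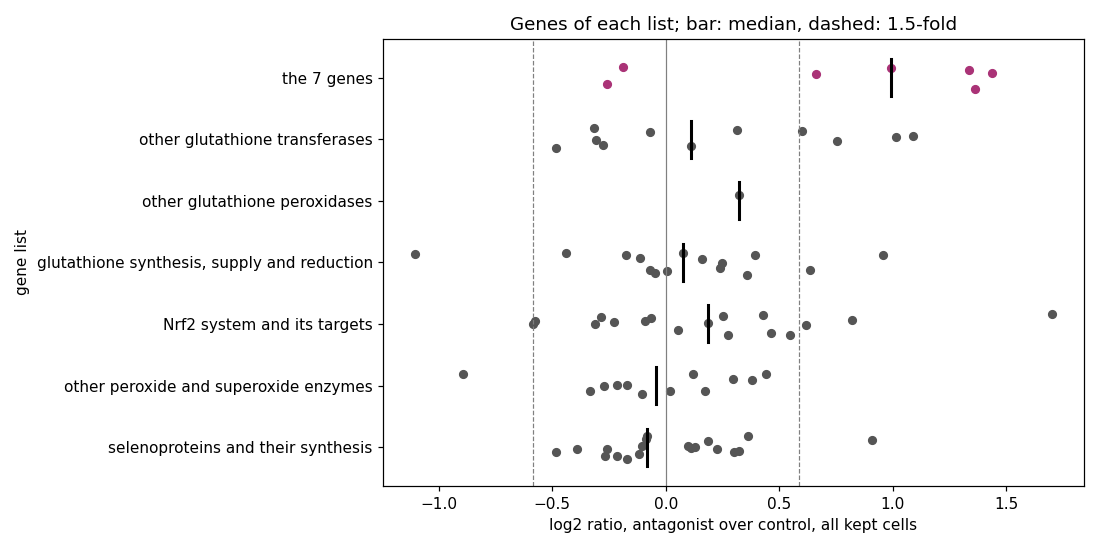
log2 ratio of the antagonist to the control library over all kept cells (horizontal axis) for the 7 genes and for each gene that passed the rule of size in 6 further lists (vertical axis), with medians as bars and the 1.5-fold limits dashed. The medians of the 6 lists lie between -0.08 and 0.32, and the 7 genes, chosen on this contrast, are drawn for reference.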

How the data were processed

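The authors deposited raw UMI counts for each gene and barcode. Per the submitters' processing notes the authors used Cell Ranger with GRCm38 (mm10), and per the file headers its version was 3.1.0. Whether introns were counted is not given in the sources used here. All 7 genes, the gene lists and the gates were chosen with earlier results of these data known. A cell entered a gate when at least 3 markers had a UMI and their sum reached, per 10000 UMIs, 2000 (Paneth), 200 (goblet, enterocyte), 30 (tuft, enteroendocrine, immune, stem, G2 and M phase) or 20 (S phase). These limits were set after the distributions had been seen. Differentiated gates came first, then G2 and M phase, S phase and stem. Cells in several differentiated gates (71 and 48) were set apart, and no doublet caller was run. Groups with at least 50 cells in both libraries were compared. UMIs were summed, and intervals are exact: Poisson for levels, conditional binomial for ratios, Clopper-Pearson for shares. No test was made, since 1 library per group and no map from cells to mice allow none. The 7 genes are always given. From each list the 2 highest and 2 lowest ratios were named, and for each gene the 5 nearest by correlation among genes with 50 CPM in a group; Gclc was named in addition, after its values had been seen. The annotation held 30934 of the 31053 gene identifiers. Calculations used Python with numpy, scipy, pandas and matplotlib and were checked on simulated counts. Alternatives changed the cell filter, scaling, depth, cell weights, gate limits and composition.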

Additional observations from a re-analysis of the deposited data

Results flagged for a closer look

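A pair of genes had log2 ratios of opposite sign in different cell groups, and the difference between the groups was not tested. Gpx1 had its highest log2 ratio in the Paneth-like group, 2.52, and its lowest in ungated cells, -0.049, a sign that held in 4 of 13 alternatives, which reached up to 0.54. Gpx2 had its highest log2 ratio in the Paneth-like group, 0.94, and its lowest in tuft-like cells, -0.76. The median over all genes was 1.56 in the Paneth-like group, whose median depth was 49700 UMIs in the control and 2841 in the antagonist library, and -0.02 in tuft-like cells. The part of these values in the 2 patterns was not tested.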

How the results depend on the processing

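Over all kept cells, each of the 7 log2 ratios kept its sign under all 10 alternatives, and the count of genes at least 1.5-fold higher stayed between 4 and 5. The lowest ratios of the 5 higher genes came with gates weighted alike: 0.63 for Gsta1, 0.82 for Gsta4, 0.93 for Gstm3, 0.74 for Gstp1 and 0.28 for Gpx1. The median of all genes was -0.07, -0.14 in cells thinned to 3000 UMIs and -0.12 in cells thinned to 1000, without cells of 20000 UMIs or more, or without mitochondrial and ribosomal protein genes. Pairs of gene and group at least 1.5-fold higher numbered 15 to 25 under 13 alternatives. Pairs at least 1.5-fold lower, 2 as reported, numbered 1 with gate limits halved, 1 with 5 markers per gate and 4 with gates called on thinned cells. Of 694 alternative values 653 had the sign reported, and 3 reversed a called value. Gstm3 in the stem-like gate was at -0.20 in cells thinned to 1000 UMIs. Gpx2 in the Paneth-like gate was at -0.62 with median-of-ratios scaling and -0.049 without cells of 20000 UMIs or more. The value of -0.62 is the log2 ratio of 0.94 with the group's median over all genes, 1.56, taken off. The cause of the other reversals was not tested. Leaving out deep cells and calling gates on thinned cells were chosen after seeing the data. No paired analysis was possible because each group has 1 library. A count of 0 allows up to 18.6 CPM in the antagonist enteroendocrine-like gate and 3.83 CPM in the antagonist stem-like gate.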
